A study of Mus musculus with 3 samples.

Results

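The genes described here are 10 transcription factor genes known for their part in the development and maturation of natural killer (NK) cells: Id2, Id3, Nfil3, Tox, Tox2, Zeb2, Prdm1, Tcf3, Tcf4 and Tcf12. They were chosen by symbol, 10 of 22350 protein-coding genes in the mm9 annotation, and each was taken with 50 kb on either side of its gene body. These windows held 38 of 15524 Runx3-bound regions (0.245%), called Runx3 peaks below, and 147 of 49902 regions marked by H3K4me1 (0.295%), and no 2 of the windows shared a base. The maps came from chromatin immunoprecipitation sequencing (ChIP-seq) of freshly isolated, resting splenic NK cells (NKC) of ICR mice, an outbred stock, without a genetic change or a treatment. An in-house polyclonal antibody to the transcription factor Runx3, a monoclonal antibody to H3K4me1, the single methylation of lysine 4 on histone H3 that marks enhancers and the flanks of active promoters, and a non-immune rabbit serum as control were used, with 1 sample each in the series. The age of the mice was not given in the sources used here. The labels name NKp46 and the methods DX5 as the marker for sorting. Both lists hold coordinates only, so the height of a peak and the depth behind it are unknown, and with 1 list per antibody no value below has a spread between replicates.

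The E proteins encoded by Tcf3, Tcf4 and Tcf12 are basic helix-loop-helix factors that bind E-box sequences as dimers. Id2 and Id3 lack a DNA-binding region, pair with E proteins and keep them from DNA, and Id2 is required for NKC to mature. Nfil3, a basic leucine zipper factor, and Tox, a factor with an HMG box, act early in the lineage, and Tox2 is a relative of Tox. Zeb2, a zinc finger repressor, and Prdm1, also known as Blimp-1, act late, during terminal maturation. Runx3 binds the RUNX consensus, which was searched on both strands in the form TGTGGT, in the form TGTGGC, in the form TGCGGT and in the form TGCGGC. Sequences printed below were read from the mm9 reference genome, which is not that of ICR mice. Binding and a histone mark near a gene are no measure of its expression.

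All 10 windows held at least 1 Runx3 peak, against 62.6% of all protein-coding genes, and all 10 held H3K4me1, against 79.7%. The number of Runx3 peaks was 6 at Nfil3 and at Prdm1, 5 at Tox and at Zeb2, 4 at Id3 and at Tcf3, 3 at Id2, 2 at Tox2 and at Tcf12, and 1 at Tcf4. The median was 4 peaks per window, and over all protein-coding genes it was 1. The windows differed in length from 102.3 kb at Id3 to 443.8 kb at Tcf4, so the counts were also divided by length. The density was highest at Nfil3 (5.27 peaks per 100 kb), followed by Id3 (3.91), Tcf3 (3.22), Prdm1 (3.14), Id2 (2.93), Zeb2 (2.14), Tox (1.23), Tox2 (0.905), Tcf12 (0.544) and Tcf4 (0.225). The median density of the 10 genes was 2.54 peaks per 100 kb and that of all protein-coding genes 0.880, and 8 of the 10 genes lay above the latter. No replicate error was available to say which neighbours in this order differ.

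**Figure D1:**
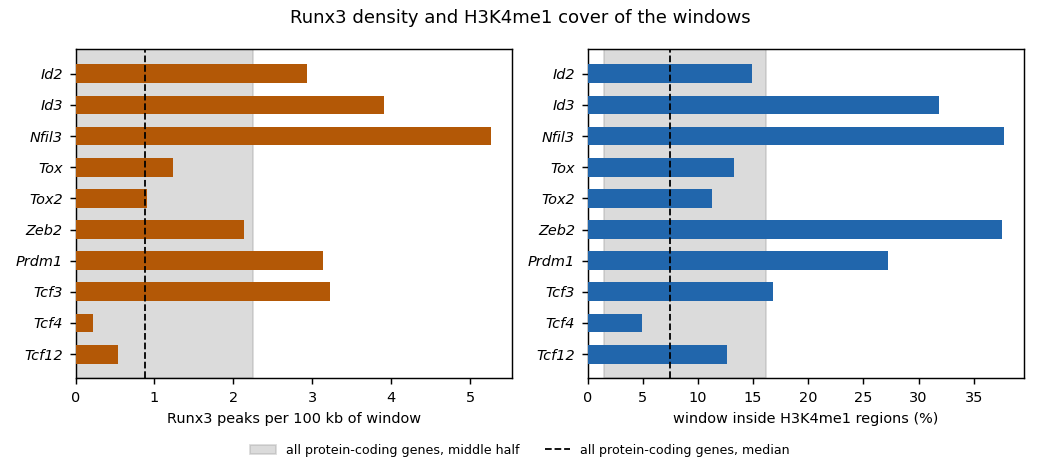
Runx3 peaks per 100 kb of window (left) and percentage of the window inside H3K4me1 regions (right) for each of the 10 genes, as bars from 1 list per antibody. The shaded band runs from the lower to the upper quartile of all 22350 protein-coding genes and the dashed line is their median. Nfil3 leads in both panels (5.27 peaks per 100 kb and 37.7%), Zeb2 comes next in H3K4me1 cover (37.6%) but is the sixth in Runx3 density, and Tcf4 is lowest in both (0.225 and 4.89%).

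The share of each window inside H3K4me1 regions gave a similar order. It was 37.7% at Nfil3, 37.6% at Zeb2, 31.8% at Id3, 27.3% at Prdm1, 16.8% at Tcf3, 14.9% at Id2, 13.3% at Tox, 12.6% at Tcf12, 11.3% at Tox2 and 4.89% at Tcf4. The median of the 10 genes was 15.9%, against 7.49% over all protein-coding genes, and 9 of the 10 lay above the latter. Only 2.82% of all protein-coding genes had a cover as high as Nfil3, and 2.87% one as high as Zeb2. Spearman's rho between Runx3 density and H3K4me1 cover was 0.855 over the 10 genes and 0.867 over all protein-coding genes, as a description over windows that share the same 2 lists.

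Both measures moved with gene length. Over the 2399 protein-coding genes with a body of 100 kb or more, the median Runx3 density was 0.380 peaks per 100 kb and the median cover 3.55%. The 5 long genes (Tox, Tox2, Zeb2, Tcf4 and Tcf12) had medians of 0.905 peaks per 100 kb and 12.6%. Of these, 4 were above the long-gene median in density, Tcf4 being the exception, and 5 were above it in cover. The 5 shorter genes (Id2, Id3, Nfil3, Prdm1 and Tcf3) had medians of 3.22 peaks per 100 kb and 27.3%. No median was taken over all protein-coding genes of such length. Some of the peaks counted at Id3, Prdm1 and Tcf3 lay nearer to starts of other genes, as given below.

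**Figure D2:**
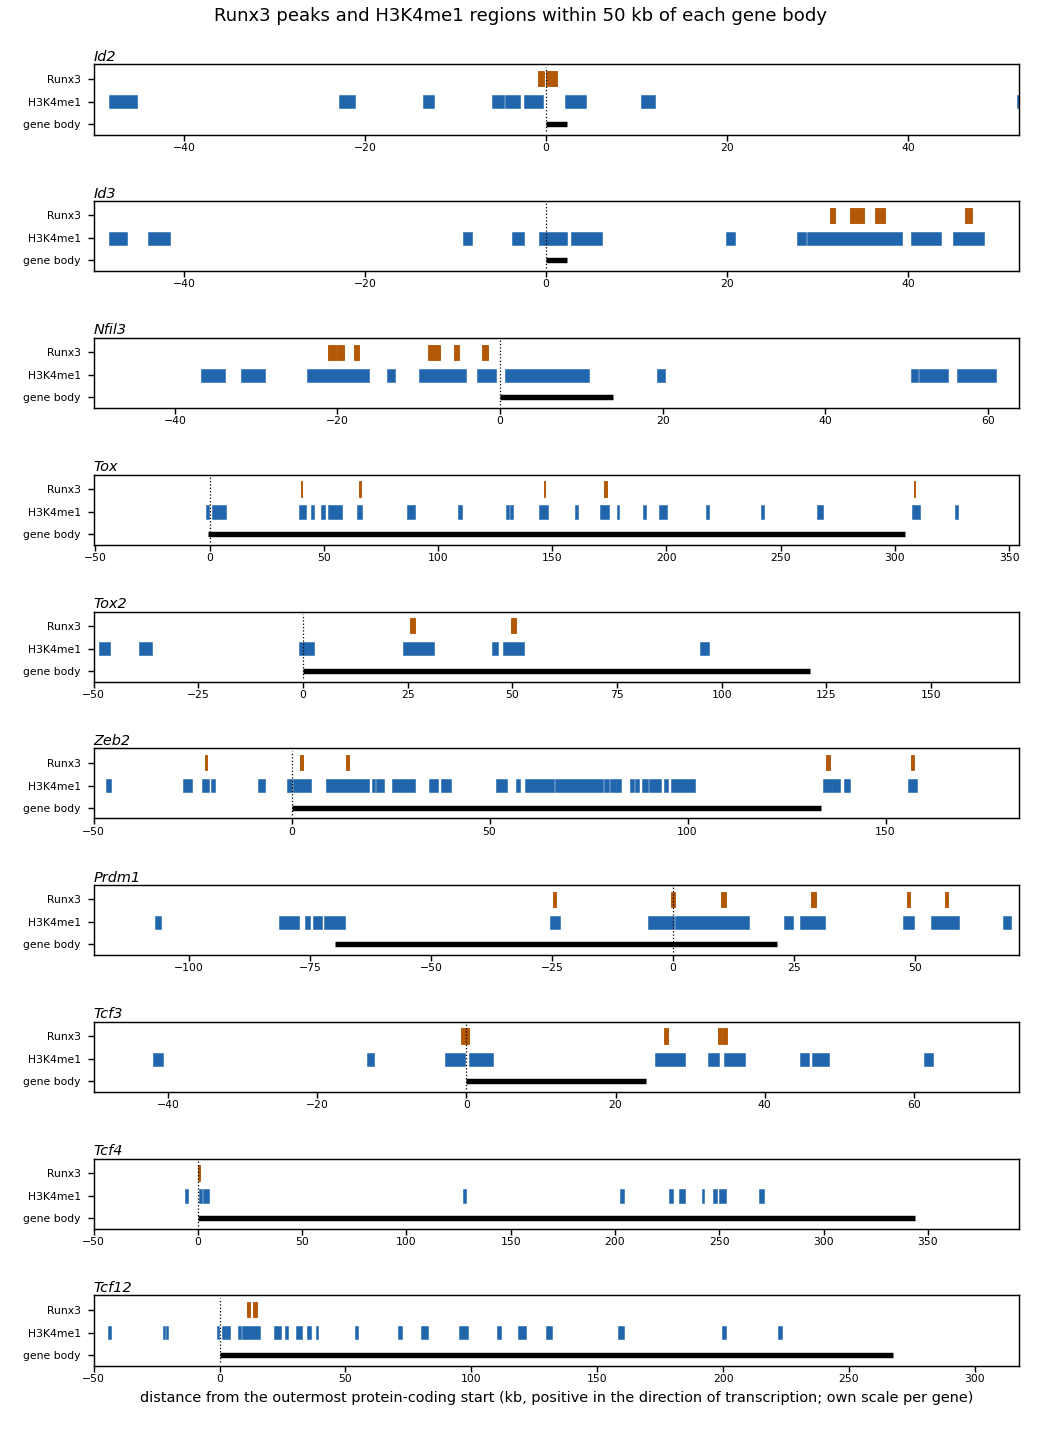
Map of the 10 windows, with Runx3 peaks (orange), H3K4me1 regions (blue) and the annotated gene body (black) against the distance in kb from the outermost start of a protein-coding transcript (dotted line). Distances are positive in the direction of transcription and each gene has its own scale. Peaks flank the start at Id2, lie upstream at Nfil3, lie inside the body at Tox2 and Tcf12, and lie 31.6 kb or more downstream of the start at Id3.

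The Id genes, which encode the inhibitors of E proteins, are both about 2.3 kb long and differed in where Runx3 was found. Id2 (chr12:25778666-25780957, minus strand) had 3 Runx3 peaks, all of them less than 1 kb from its start. They lay at chr12:25779718-25780403 over coding and UTR exons, at chr12:25780449-25781011 over the start itself and at chr12:25781181-25781870 just upstream. The first of these held 5 RUNX matches and each of the others held 2. The peak over the start and the one in the exons overlapped no H3K4me1 region, and these were the only 2 of the 38 peaks without one. The third overlapped a region of 2071 bp by 84.3% of its width. The start of Id2 lay in a gap of the mark, 0.332 kb from the nearest region upstream and 2.08 kb from the nearest downstream. In all, 9 H3K4me1 regions lay in the Id2 window and 1 of them held a Runx3 peak. Both matches of the peak just upstream were of the TGCGGT form. The RUNX match nearest to the middle of the peak over the start lay downstream of the start, and it is shown here (plus strand, match in capitals):
Id2, chr12:25780809-25780838: agatgcccaagcTGTGGTccgacaggctgt

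Id3 (chr4:135699412-135701670, plus strand) was covered by H3K4me1 over 100% of its body, by a region of 3015 bp that included the start. It had no Runx3 peak within 20 kb of the body. The 4 Runx3 peaks of its window lay 31.6 to 46.6 kb downstream of the start. All 4 were inside E2f2, a cell cycle transcription factor gene, and the nearest protein-coding start was that of E2f2 in each case, at 0.432 to 9.34 kb. Of these, 3 shared a single H3K4me1 region of 10509 bp (chr4:135728192-135738700). The widest, chr4:135732946-135734570, measured 1625 bp and held 7 RUNX and 4 ETS matches.

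Among the E protein genes, Tcf3 (chr10:79872259-79896392, minus strand) had 1 Runx3 peak at its own promoter. This peak, chr10:79896087-79897166, had its midpoint 0.235 kb upstream of the start and 48.5% of its bases in H3K4me1. The outermost start lay outside the mark, 0.251 kb from a region upstream and 0.351 kb from one downstream. That downstream region held 3 of the 11 annotated starts of Tcf3. The other 3 peaks of the Tcf3 window lay at the starts of 2 other genes. A pair, at chr10:79861420-79862081 and chr10:79862239-79862674, was 0.416 and 0.162 kb from a start of Mbd3, which encodes a methyl-CpG-binding domain protein, and 1 was 0.052 kb from a start of Uqcr11, which encodes a subunit of the respiratory chain. The narrower peak of the pair, at 436 bp, was the narrowest of all 38 and held no RUNX match. The single match in the Tcf3 promoter peak was of the TGCGGC form and lay 258 bp from the midpoint of the peak (plus strand, match in capitals):
Tcf3, chr10:79896354-79896383: gcctcatcttccTGCGGCgggagacatgtt

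Tcf12 (chr9:71692059-71959626, minus strand) had 2 Runx3 peaks, both in introns, at 11.4 and 14.1 kb downstream of its start. They shared an H3K4me1 region of 7235 bp (chr9:71943390-71950624), the only 1 of 23 regions in this window that held Runx3. The peak at 14.1 kb, chr9:71944619-71946415, was the widest of the 38 at 1797 bp, and 98.9% of all Runx3 peaks were narrower. No peak lay at a start of Tcf12, where the nearest H3K4me1 regions were 0.133 kb upstream and 0.856 kb downstream. The intronic site is shown because it was the widest peak of the set (minus strand, RUNX match in capitals):
Tcf12, chr9:71945302-71945457: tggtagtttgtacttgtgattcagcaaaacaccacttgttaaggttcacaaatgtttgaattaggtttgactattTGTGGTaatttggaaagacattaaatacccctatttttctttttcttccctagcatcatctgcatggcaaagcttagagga

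The Tox genes had no Runx3 peak within 1 kb of an annotated start. Tox (chr4:6613500-6918704, minus strand) had 5 peaks, of which 4 were intronic, at 40.2, 65.8, 146.6 and 173.4 kb from its outermost protein-coding start, and 1 lay 308.7 kb from it, beyond the 3′ end of the gene. The peak beyond the end had its nearest protein-coding start at Nsmaf, 227.9 kb away, and the nearest annotated start of Tox of any kind 7.22 kb away. Each of the 5 lay wholly in an H3K4me1 region of its own, with widths from 2149 to 4070 bp, and 17 of the 22 H3K4me1 regions in the Tox window had no Runx3 peak. The outermost protein-coding start of Tox was unmarked, with regions 0.335 kb upstream and 0.932 kb downstream, and 1 of its 4 annotated starts lay in the mark. Tox2 (chr2:163028861-163149906, plus strand) had 2 intronic peaks, 26.2 and 50.4 kb from the outermost start, of 1161 and 1242 bp and with 4 RUNX matches each. They lay in H3K4me1 regions of 7391 and 5010 bp, the widest at chr2:163052792-163060182. A region of 3470 bp covered the outermost Tox2 start, at which no Runx3 lay, and the 50 kb downstream of Tox2 held no H3K4me1. The site in the wider peak of Tox2 is shown because the match nearest to its midpoint was TGCGGT, a form found in 6 of the 38 peaks (plus strand, match in capitals):
Tox2, chr2:163079242-163079397: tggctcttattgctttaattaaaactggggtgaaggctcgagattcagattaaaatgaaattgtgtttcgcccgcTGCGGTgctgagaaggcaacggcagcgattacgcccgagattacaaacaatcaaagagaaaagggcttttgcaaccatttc

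Nfil3 (chr13:53062578-53076442, minus strand) was unlike the others in that its 6 Runx3 peaks were all upstream and intergenic. They lay 1.86, 5.38, 8.13, 17.7, 19.7 and 20.6 kb from the start, and for each of them Nfil3 was the nearest protein-coding gene. The peaks fell into 3 H3K4me1 regions, with 1 peak in the region of 2368 bp nearest to the start, 2 in a region of 5732 bp and 3 in a region of 7700 bp. The start lay between this first region, 0.512 kb upstream, and a broad region of 10380 bp (chr13:53065502-53075881) that began 0.560 kb downstream. That broad region brought the cover of the Nfil3 body to 74.9% and held no Runx3 peak. Cover was 45.0% over the 50 kb upstream and 20.2% over the 50 kb downstream. The peak at 8.13 kb, chr13:53083883-53085260, was the widest of the 6 at 1378 bp and held 7 RUNX matches, all of the TGTGGT form. The stretch with most of them, 4 within 293 bases, was chosen after its values were seen and is shown for that cluster (plus strand, matches in capitals, where ACCACA is TGTGGT read on the other strand):
Nfil3, chr13:53084617-53084909: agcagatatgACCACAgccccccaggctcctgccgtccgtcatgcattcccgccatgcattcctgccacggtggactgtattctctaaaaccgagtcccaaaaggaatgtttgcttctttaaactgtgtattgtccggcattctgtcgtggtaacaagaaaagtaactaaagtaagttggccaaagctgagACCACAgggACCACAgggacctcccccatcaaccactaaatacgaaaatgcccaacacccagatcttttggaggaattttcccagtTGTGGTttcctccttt

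Of the late-acting factors, Zeb2 (chr2:44839154-44972915, minus strand) had the most H3K4me1 regions, 30, and they covered 52.9% of its body. Runx3 was found in 5 of them. A peak lay 2.52 kb and another 14.1 kb inside the gene from the outermost start, both in introns, 1 lay 21.6 kb upstream, and 2 lay beyond the 3′ end, where the nearest protein-coding start was that of Gtdc1, at 32.9 and 54.2 kb. The broad regions of Zeb2 differed in Runx3. The widest, chr2:44894251-44906301 with 12051 bp, had no peak, and the next, of 11034 bp, had 1. In Runx3 density 25.7% of all protein-coding genes reached the level of Zeb2, and in H3K4me1 cover 2.87% did. This was the largest gap between both shares among the 5 genes above the upper quartile of cover. At Tcf12, below that quartile, the shares were 59.8% and 33.2%, a wider gap. The peak beyond the 3′ end at chr2:44815803-44816380 held no RUNX match and 2 ETS matches.

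Prdm1 (chr10:44156983-44248307, minus strand) had 6 Runx3 peaks in 6 of its 13 H3K4me1 regions. One peak, chr10:44178144-44179048, lay across the outermost protein-coding start, with its midpoint 0.042 kb away. It bridged the gap between a region of 5260 bp over the start and a region of 15400 bp (chr10:44162825-44178224), the widest of the 147, and 83.0% of its bases were marked. A second peak lay 10.4 kb into the gene within the same wide region. The other 4 lay 29.1, 48.7 and 56.6 kb downstream of the start, beyond the end of the gene, and 24.5 kb upstream of it, inside the body of a longer annotated transcript. For 5 of the 6 peaks the nearest protein-coding gene was Prdm1, and for the peak farthest downstream it was Atg5, an autophagy gene, at 56.0 kb. Both RUNX matches in the Prdm1 promoter peak were of the TGCGGC form, and the one nearest to its midpoint is shown beside the intronic and intergenic forms given for the other genes (minus strand, match in capitals):
Prdm1, chr10:44178553-44178582: ggtaaagaagtcTGCGGCagggcagggagg

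**Figure D3:**
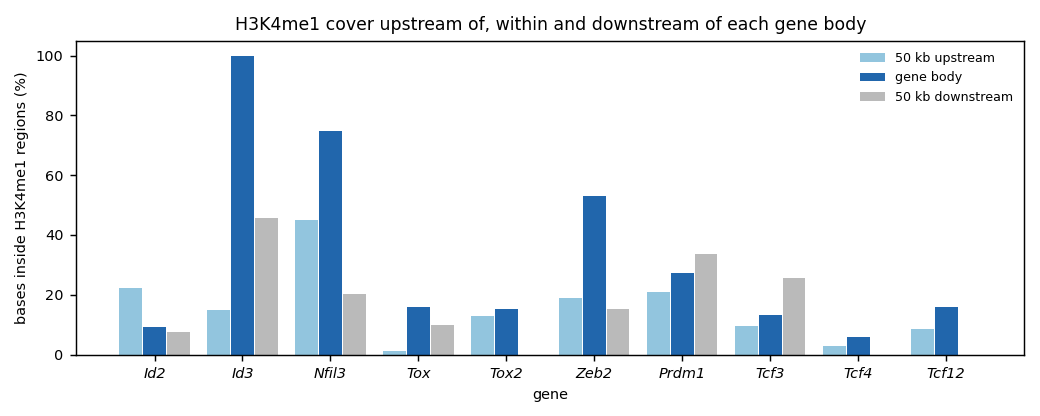
Percentage of bases inside H3K4me1 regions in the 50 kb upstream of each gene body, in the body and in the 50 kb downstream, from 1 list. The body was the most covered part at 7 genes, with 100% at Id3 and 74.9% at Nfil3, whereas the upstream flank led at Id2 (22.4%) and the downstream flank at Prdm1 (33.6%) and Tcf3 (25.6%).

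Tcf4 (chr18:69503800-69847621, plus strand), the remaining E protein gene, had a body of 343.8 kb and 14 annotated starts. It had the fewest Runx3 peaks, 1, at its outermost start. The midpoint of this peak was 0.354 kb from that start, it measured 951 bp, and 53.8% of it lay in H3K4me1. It was within 1 kb of 5 of the 14 starts. H3K4me1 regions numbered 11, and their cover of the gene body was 5.91%. At Tcf4 4.89% of the window was marked, against 16.8% at Tcf3 and 12.6% at Tcf12, so the E protein gene with the longest body had the lowest values of the 3.

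Across the 10 genes, 4 (Id2, Prdm1, Tcf3 and Tcf4) had a Runx3 peak within 1 kb of an annotated start, against 28.2% of all protein-coding genes. At least 1 annotated start lay inside H3K4me1 at 7 genes, all but Id2, Nfil3 and Tcf12, against 43.6% of all protein-coding genes. A gene with many starts has more chances to be counted in either way, and the 10 genes had from 1 (Id2 and Nfil3) to 14 (Tcf4). By distance of the midpoint from the outermost protein-coding start, 6 peaks were under 1 kb away, 2 at 1 to 5 kb, 22 at 5 to 50 kb and 8 at 50 kb or more. By annotation 14 peaks were intergenic, 14 lay within introns and 10 touched an exon. The nearest protein-coding start was that of the listed gene for 27 peaks and that of another gene for 11, with 4 of these at Id3, 3 at Tcf3, 2 at Zeb2 and 1 each at Tox and Prdm1.

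**Figure D4:**
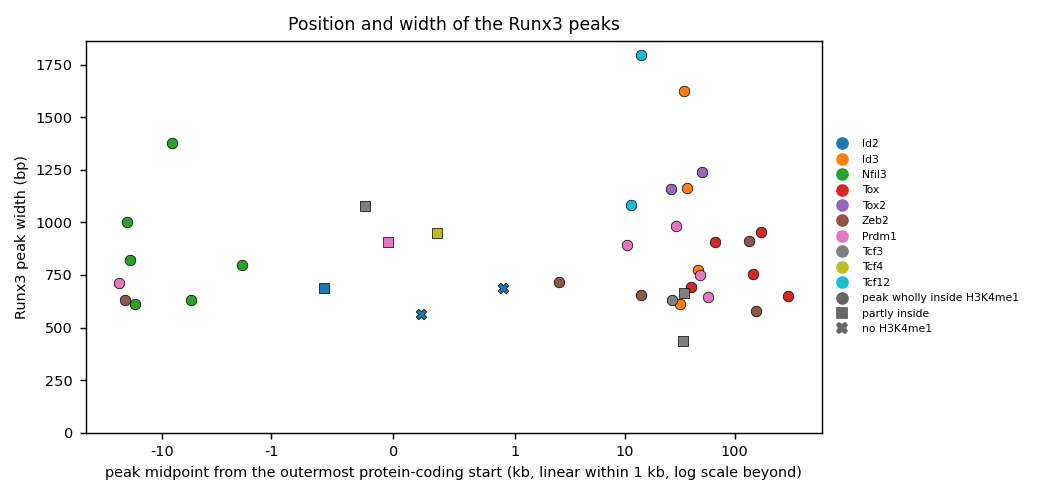
Width of each of the 38 Runx3 peaks in bp against the distance of its midpoint from the outermost protein-coding start in kb (linear within 1 kb, logarithmic beyond, positive in the direction of transcription). Colour gives the gene and shape gives the H3K4me1 overlap. The 6 peaks under 1 kb from a start are either partly inside H3K4me1 or, for 2 peaks of Id2, without it, while each of the peaks beyond 1 kb is wholly inside except the pair at Mbd3 near Tcf3.

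Of the 38 Runx3 peaks, 36 (94.7%, 95% confidence interval 82.7 to 98.5%) overlapped H3K4me1 by 1 bp or more, against 95.7% of all Runx3 peaks. The midpoint lay in a region for 34 peaks (89.5%, interval 75.9 to 95.8%), against 83.6%. Wholly inside a region were 30 peaks, partly inside 6. Seen from the mark, 30 of the 147 H3K4me1 regions held a Runx3 peak (20.4%), against 28.6% of all regions. The median width was 3770 bp for those with a peak and 1665 bp for the 117 without one, whereas over the whole list these medians were 2646.5 and 1614 bp. A wide region has more room for a peak. Of the 5 regions of 10 kb or more in these windows, 3 held a peak (at Id3, Zeb2 and Prdm1) and 2 did not (at Nfil3 and Zeb2). Regions of that width were 1.99% of the whole list, and the share of them that held a peak was not counted there. The intervals cover counting error over peaks only.

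The RUNX consensus was present in 36 of the 38 peaks (94.7%, interval 82.7 to 98.5%), against 93.3% of all Runx3 peaks. In the central 200 bp it was present in 26 (68.4%, interval 52.5 to 80.9%), against 69.2%. The peaks were 436 to 1797 bp wide, with a median of 764.5 bp against 825 bp in the whole list, and held 3.12 matches per kb against 3.19. The 102 matches comprised 48 TGTGGT, 38 TGTGGC, 7 TGCGGT and 9 TGCGGC. The form TGTGGT occurred in 25 peaks (65.8%, against 65.5% of all), TGTGGC in 24 (63.2%, against 54.1%), and TGCGGT and TGCGGC in 6 each (15.8%, against 24.7% and 26.1%). The ETS consensus (AGGAAGT or CGGAAGT) occurred in 17 peaks (44.7%, against 41.8%) and the AP-1 consensus (TGAGTCA or its reverse complement TGACTCA) in 7 (18.4%, against 16.5%). An E-box (CAGCTG or CAGGTG), the kind of sequence that E proteins and Zeb2 bind, occurred in 29 (76.3%, interval 60.8 to 87.0%, against 66.6%), and the SP1 consensus (GGGCGG) in 12 (31.6%, against 41.9%). A match is a run of letters in the reference and does not show that a factor was bound.

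The T-box sequence GGTGTGA, a form read by T-bet and Eomes, occurred in 12 of the 38 peaks (31.6%, interval 19.1 to 47.5%), and in 16.7% of all Runx3 peaks. The 12 peaks lay in the windows of 7 of the 10 genes, though not all were nearest to the listed gene. Those in the Id3 window lay inside E2f2, in a single H3K4me1 region. For the one at Tox, the one at Zeb2 and the farther of those at Prdm1, the nearest protein-coding start was that of Nsmaf, Gtdc1 and Atg5. Of the 15 matches in them, 4 overlapped an E-box match and 1 a RUNX match, since these words share letters. A RUNX and an ETS match lay within 50 bp of each other in 10 peaks (26.3%, interval 15.0 to 42.0%), against 17.3% of all peaks, and this interval includes the share in all peaks. No test was made of either share, because the peaks of a window are not independent of each other. Several features were compared, and the intervals make no allowance for their number.

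**Figure D5:**
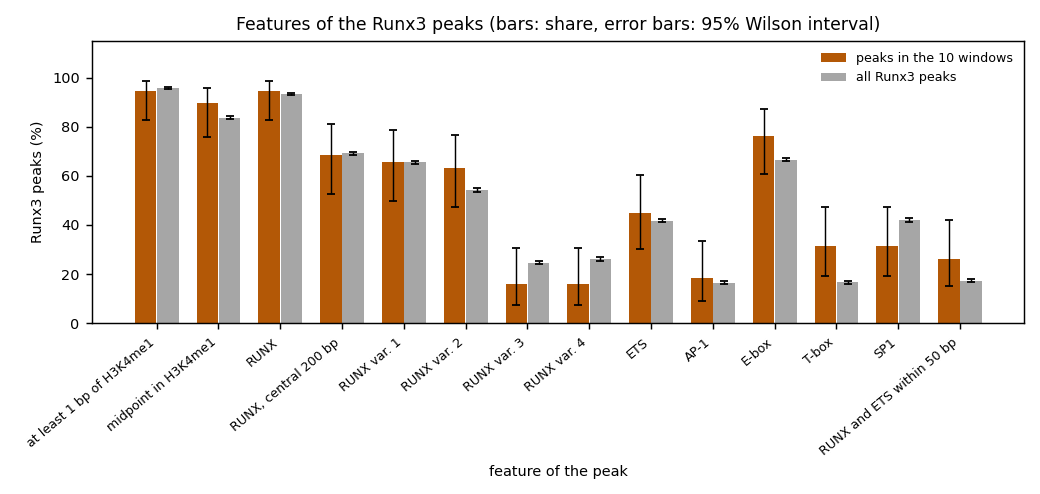
Percentage of Runx3 peaks with each feature in the 10 windows (orange, 38 peaks) and in the whole list (grey, 15524 peaks), with 95% Wilson intervals as error bars. The consensus form TGTGGT is RUNX var. 1, the form TGTGGC is var. 2, the form TGCGGT is var. 3 and the form TGCGGC is var. 4. The interval of the 38 peaks leaves out the share of the whole list for the T-box sequence (19.1 to 47.5%, against 16.7%) and includes it for every other feature shown. The intervals treat peaks as independent, which peaks of a window are not, and make no allowance for the number of features. They are no test of a difference.

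The 10 peaks with a RUNX and an ETS match within 50 bp lay in the windows of 6 genes, with 4 of them at Nfil3 and 2 at Prdm1. The closest pair, 2 bp apart, lay in the intron of Tox at 173.4 kb from the outermost protein-coding start. The sequences are given because they show spacing and order, with both matches in capitals, each on the strand where RUNX reads as TGTGGT or else as TGTGGC. The word ACTTCCT is an ETS match read on the other strand, and so is ACTTCCG. The gap was 38 bp in the first sequence of Nfil3, then 21, 10 and 31 bp in the order shown, 2 bp at Tox, 43 bp at Zeb2, 41 and 25 bp at Prdm1, 8 bp in the peak inside E2f2 near Id3, and 43 bp in the peak at Uqcr11 near Tcf3.
Nfil3, chr13:53078243-53078305, minus: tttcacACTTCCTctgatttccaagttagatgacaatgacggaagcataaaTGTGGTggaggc
Nfil3, chr13:53085155-53085200, minus: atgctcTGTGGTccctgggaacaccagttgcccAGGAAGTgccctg
Nfil3, chr13:53095955-53095989, minus: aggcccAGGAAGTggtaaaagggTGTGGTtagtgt
Nfil3, chr13:53096852-53096907, plus: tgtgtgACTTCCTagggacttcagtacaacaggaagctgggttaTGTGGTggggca
Tox, chr4:6744339-6744365, minus: ttttaaAGGAAGTgaTGTGGCattgtg
Zeb2, chr2:44994551-44994618, plus: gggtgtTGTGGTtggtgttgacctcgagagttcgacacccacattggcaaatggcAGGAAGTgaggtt
Prdm1, chr10:44168093-44168158, plus: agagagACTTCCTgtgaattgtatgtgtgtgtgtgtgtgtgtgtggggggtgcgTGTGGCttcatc
Prdm1, chr10:44203085-44203134, minus: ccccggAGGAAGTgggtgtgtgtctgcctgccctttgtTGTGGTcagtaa
E2f2 near Id3, chr4:135733990-135734022, plus: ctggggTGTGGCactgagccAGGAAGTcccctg
Uqcr11 near Tcf3, chr10:79869619-79869686, plus: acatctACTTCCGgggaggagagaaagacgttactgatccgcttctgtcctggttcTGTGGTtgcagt

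Other genes of the same families were counted in the same way, and 10 of the 11 listed were found in the annotation. In 6 of these 10 the 50-kb window held Runx3, near the 62.6% of all protein-coding genes, and 4 (Id4, Tox3, Hlf and Tal1) had none. The Id relative Id1 had 2 peaks and a cover of 22.8%, and Id4 none and 1.57%. Of the Tox relatives, Tox4 had 4 peaks and a cover of 14.2%, whereas the Tox3 window held neither Runx3 nor H3K4me1. Zeb1, the relative of Zeb2, had 3 peaks and a cover of 6.49%, against 5 peaks and 37.6% at Zeb2. Among basic leucine zipper genes related to Nfil3, Tef had 5 peaks, Dbp 3 and Hlf 0, with covers of 19.1%, 28.5% and 4.86%. The helix-loop-helix gene Lyl1 had 8 peaks and Tal1 0. Runx3 lay within 1 kb of a start at 3 of the 10 (Tox4, Zeb1 and Tef), near the 28.2% of all protein-coding genes. The median density was 1.52 peaks per 100 kb in these 10 relatives and 2.54 in the 10 genes described here. Single relatives ranged from 0 to 7.75 at Lyl1, which was above Nfil3 (5.27), the highest of the 10 genes. The peaks of the relatives were not assigned to a nearest gene.

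As a check of the cell type, 8 markers of NKC (Ncr1, Klrb1c, Klrk1, Tbx21, Eomes, Prf1, Gzmb and Il2rb) were counted with 5 kb on either side, a narrower window than the 50 kb used above, so their values are not set beside those of the 10 genes. All 8 held Runx3 peaks, 24 in all, and 60.2 to 92.9% of their bases were in H3K4me1. A peak was found at 1 of 4 T cell markers (cover 0 to 14.2%), 2 of 4 B cell markers (0 to 35.3%, highest at Cd79a), 1 of 4 myeloid markers (0 to 41.3%, highest at Itgam, which NKC also express) and 0 of 2 erythroid markers. The Runx3 density at Cd79a, 13.5 peaks per 100 kb, lay within that of the NKC markers (8.16 to 24.3). Of all protein-coding genes, 33.6% held a peak without flanks and 51.0% with 20 kb on either side, and 5 kb was not run.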

How the data were processed

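Reads of 40 bp from resting splenic NK cells were aligned by the authors to mm9 with ELAND (per the labels; CASAVA 1.7 in the submitters' processing notes), and, by the study's methods, regions were called with MACS on reads joined over biological repeats, against non-immune serum. The labels describe each sample as the first experiment with its antibody. The Runx3 list held 15524 regions, the number that the paper reports for resting NKC, where its methods describe joined repeats. The text of the paper gives no such number for H3K4me1, so whether 1 experiment or joined repeats lie behind that list cannot be read from it. The deposited lists give start and end coordinates in bp and no signal, score, p-value or summit, so a stricter list was made by width. No list of the serum control was analysed here. Empty columns of the Runx3 list were not used.

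All chromosomes named in the lists were found in mm9 (NCBIM37), and 1 H3K4me1 region, in no window used here, ended past its chromosome. Gene bodies and starts came from GENCODE of that build, where Zfp683, listed as a relative, had no entry. Starts counted from 0 were printed from 1. Overlap meant 1 bp or more. Motifs were searched in the C57BL/6J reference, not in ICR sequence. Shares have 95% Wilson intervals. No test was made, since each antibody had 1 list. Python 3.11.15, numpy 2.4.6, scipy 1.17.1 and pysam 0.24.0 were used, and the routines were tested on simulated data. The genes, relatives, motifs and the rule for named peaks were chosen with earlier results of these data known. The rule named each of the 10 genes with the peak nearest a start, the widest and the one with most RUNX matches, and the other peaks were named after their values were seen. The sequences of RUNX and ETS pairs and of the Nfil3 cluster were added after the values were seen.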

Additional observations from a re-analysis of the deposited data

How the results depend on the processing

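No paired analysis was possible because the series holds 1 sample per antibody and no test was made. Over 7 results, 39 alternatives were run, and in 26 the value stayed within 1.5 times the reported one (counts, densities and cover) or within its 95% interval (shares). The count of 38 peaks fell to 17 within the gene bodies alone and to 16 with only peaks wider than the median. The median of 2.54 peaks per 100 kb was 1.4 without flanks and 1.59 with 20 kb (all protein-coding genes: 0 and 0.459). It was 0.675 with wide peaks (0) and 1.69 with peaks within 500 bp merged (0.872). That merging joined the 3 peaks of Id2, a pair at Nfil3 and the pair at Mbd3 near Tcf3. With only peaks nearest to a start of the gene the median was 0.946 (0), and Id3 then had none. Without Tox, Tcf4 and Tcf12 the median cover rose from 15.9% to 27.3%. With wide peaks alone, 100% overlapped H3K4me1 and 100% held the RUNX consensus. The RUNX share was 68.4% in the central 200 bp, against 69.2% of all Runx3 peaks. RUNX and ETS lay within 20 bp in 7.89% of peaks and, in the central 200 bp, within 50 bp in 10.5%. The shares with wide peaks and those of RUNX and ETS were not worked out over all Runx3 peaks under these settings. They therefore allow no comparison with the whole list. The paper gives the total of aligned reads per antibody, but replicate error, peak height and the read depth at single peaks could not be assessed.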

Other observations

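With 100 kb on either side, the windows held 51 Runx3 peaks. Id2 gained the most, from 3 to 8, so that its density rose from 2.93 to 3.95 peaks per 100 kb. Tox2 went from 0.905 to 0.934, and the density of the other 8 genes was lower than with 50 kb. Nfil3 and Tcf3 gained 2 each, to 8 and 6, and Id3, Tox2, Zeb2 and Prdm1 gained 1 each. Tox, Tcf4 and Tcf12 gained none. The peaks added at Id2 were not assigned to a gene.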
